A study of Mus musculus with 18 samples.

Results

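The transcripts of 10 genes of insulin and growth factor signalling were followed in isolated quadriceps myofibers, and all were found by their mouse symbols among the 43430 genes of the count table. They were Irs1 and Irs2, Pik3ca, Pik3r1 and Pik3c2a, Akt1 and Akt2, Mtor, Rps6kb1 and Eif4ebp1, chosen by name as the line from the insulin receptor substrates to the targets of mTOR, and each entered the tests among 13596 genes. Male and female C57BL/6 mice had received vehicle (DMSO in PBS), weekly prednisone or daily prednisone, which gave 6 groups of 3 libraries, 1 library per mouse. Treatment began at 10 weeks of age and lasted 4 weeks, each injection of prednisone held 1 mg/kg, weekly-treated mice received vehicle on the other days, and their last prednisone was given 2 days before collection. Prednisone is a synthetic glucocorticoid, a steroid that acts through the glucocorticoid receptor. The myofibers were the fraction of a collagenase digest kept by a strainer, so other cells of the muscle could be carried along, and in such bulk RNA fewer cells of a type and less RNA per cell cannot be told apart.

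When insulin or IGF1 binds its receptor, the receptor phosphorylates the adaptors IRS1 and IRS2, which recruit PI3K. The lipid that PI3K makes brings AKT to the membrane, and active AKT relieves the brake that the TSC complex holds on mTOR. In skeletal muscle this pathway drives glucose uptake, protein synthesis and fibre growth. Activity runs largely through phosphorylation, so transcript levels describe how much template was present and not how active the pathway was.

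The total count per library ranged from 10506661 to 14686654, and mitochondrially encoded genes took between 11.7% and 36.4% of it. The 10 myofibre markers, Acta1 and Ckm among them, summed to between 102000 and 188000 CPM (counts scaled to a common library size after TMM normalisation), which fits the label of the tissue. The 10 adipocyte markers summed to 355 to 805 CPM in the vehicle libraries and 710 to 5850 CPM in the prednisone libraries. Over both sexes, 8 of the 10 were called higher after daily prednisone (edgeR, median log2 fold change 2.59), beside 7.48% of all tested genes. After weekly prednisone, 10 of 10 log2 fold changes lay above 0 (median 2.86) and 0 were called. Between daily and weekly prednisone the median was -0.25, with 0 called. Of the 5 red blood cell markers, 4 were called lower over both sexes after daily prednisone, both against vehicle (median log2 fold change -0.63) and against weekly prednisone (median -0.81). Of all 13596 tested genes, 1016 and 527 were called lower in these comparisons. The red blood cell markers summed to between 68 and 122 CPM in the daily libraries, 96.5 and 175 CPM in the vehicle libraries and 127 and 201 CPM in the weekly libraries. The 9 tested macrophage markers summed to between 86.1 and 119 CPM in weekly females and to between 37.1 and 69 CPM in vehicle females, with 9 of 9 log2 fold changes above 0 and 0 called (edgeR). In daily females, 0 of 7 endothelial and 0 of 7 fibroblast markers had a log2 fold change above 0, beside 6 and 5 of 7 in daily males, with 0 called. In weekly males 5 of 5 Schwann cell markers lay above 0, and in weekly females 4 of 5, with 0 called. The part of these markers in the results was not tested.

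Members differed widely in abundance. Per kilobase of the principal transcript and over the 6 vehicle libraries, Akt2, the AKT isoform tied to insulin-stimulated glucose uptake, stood highest with 65.9 ± 11.6 CPM per kilobase (SD, n = 6). Akt1 followed with 21.5 ± 0.839 and Eif4ebp1, the repressor of cap-dependent translation that mTOR phosphorylates, with 19.0 ± 3.78, and the spreads of these 2 genes overlapped. Next came Pik3ca (5.54 ± 0.791), Irs2 (4.86 ± 1.23), Pik3r1 (4.49 ± 0.557), Mtor (3.87 ± 0.143) and Rps6kb1 (3.24 ± 0.611), and the ranges of mean ± SD of neighbours in this order overlapped. Irs1 (1.72 ± 0.492) and Pik3c2a (0.979 ± 0.262) were the least abundant, in CPM per kilobase. With the gene lengths of the deposited table in place of the principal transcript, Eif4ebp1 came first at 38.8 CPM per kilobase and Akt2 second at 14, so the order at the top rested on the length used. In mm10, Irs2 lies at chr8:10986980-11008458 and Eif4ebp1 at chr8:27260327-27275656, while Akt2 (chr7:27591552-27640826) and Pik3c2a (chr7:116337276-116443458) share chromosome 7. Pik3ca lies at chr3:32397671-32468486, Pik3r1 at chr13:101680563-101768217 and Akt1 at chr12:112653821-112674884. Exons of an antisense gene, Gm44777, cover 12.3% of the exonic bases of Pik3c2a, and 9530052E02Rik on the opposite strand covers 2.56% of those of Irs2.

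The genes also differed in how tightly they were held within a group. The SD of log2 CPM within groups was 0.0781 for Mtor, lower than for all but 0.302% of the tested genes, and 0.12 for Akt1, at percentile 4.12. Irs2 was the loosest, with an SD of 0.782 at percentile 95.6, and Pik3c2a followed with 0.508 at percentile 82.0. A shift of a given size was therefore easier to detect in Mtor than in Irs2.

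**Figure D1:**
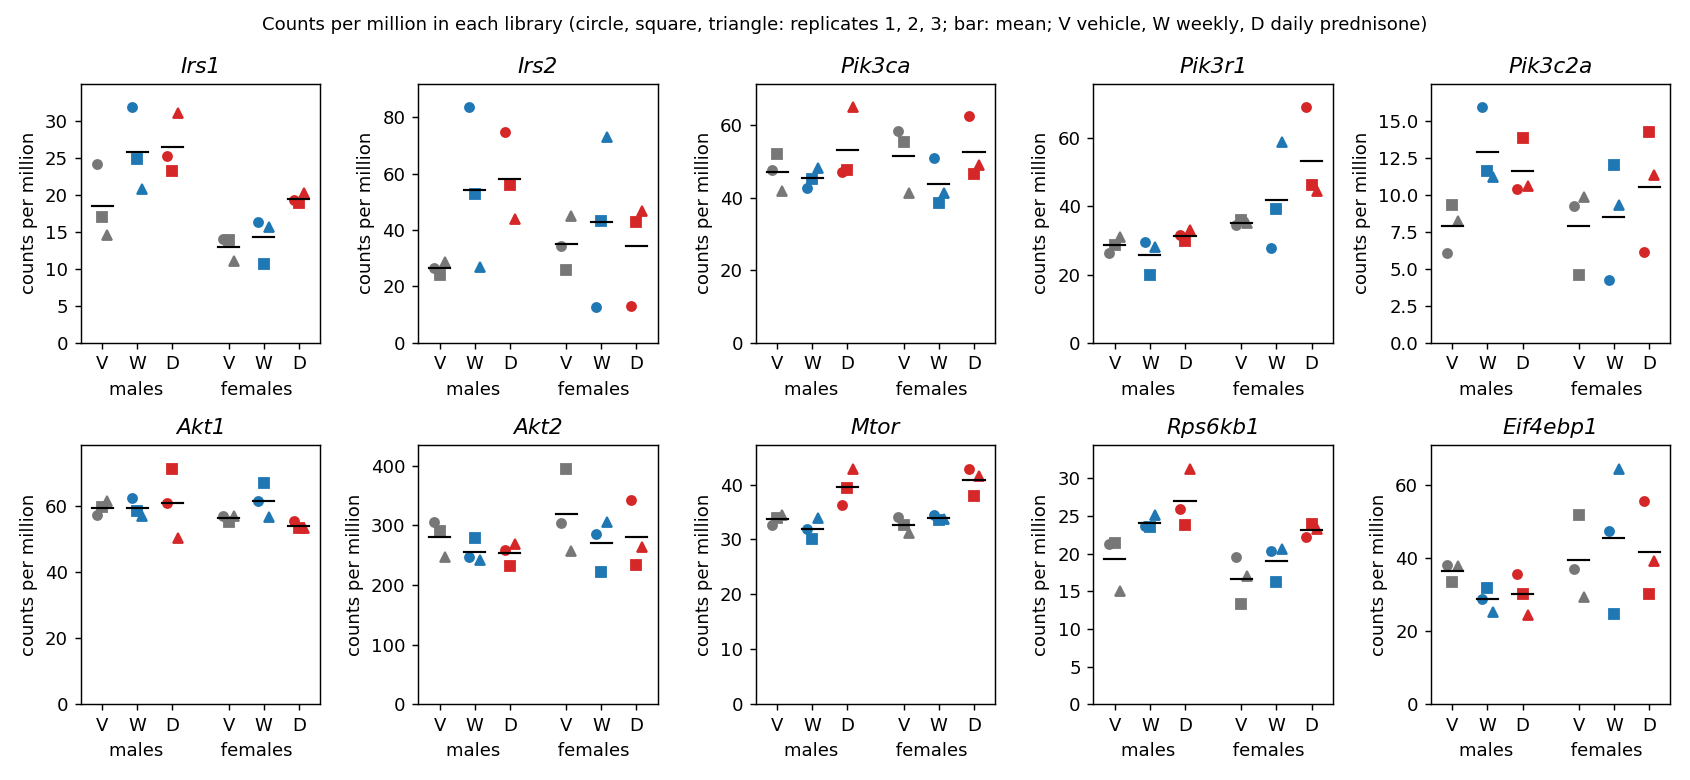
CPM (y axis, from 0) of the 10 genes in each of the 18 libraries, by sex and treatment (x axis), with a bar at the mean of each group of 3. Mtor sits between 30.1 and 34.5 in all vehicle and weekly libraries and between 36.2 and 42.9 in the daily libraries, whereas Irs2 runs from 12.8 to 83.5 with wide scatter inside the treated groups.

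The first comparison asked what daily prednisone did to these genes. Averaged over both sexes, Irs1, Mtor and Rps6kb1 were higher after daily prednisone than after vehicle, and no member was lower (edgeR quasi-likelihood test, Benjamini-Hochberg adjustment over 13596 genes, adjusted p under 0.05). This count of 3 in 10 stood against 7.48% of all tested genes called higher and 15% called in either direction. The 10 genes were chosen with earlier results of these data known, so this contrast is a description only. Of the 10 genes, 7 had a log2 fold change above 0, with a median of 0.32, beside 52.9% and a median of 0.02 over all tested genes. The promoters of the 3 called genes are shown because they share this call. Each sequence is the 250 bases before the RefSeq transcription start in GRCm38, 5′ to 3′ on the strand of the gene. Capitals mark matches on either strand to AGAACA (a half-site of the glucocorticoid receptor), CACGTG (the E-box) or CCAAT.
Irs1, chr1:82291440-82291689, minus strand: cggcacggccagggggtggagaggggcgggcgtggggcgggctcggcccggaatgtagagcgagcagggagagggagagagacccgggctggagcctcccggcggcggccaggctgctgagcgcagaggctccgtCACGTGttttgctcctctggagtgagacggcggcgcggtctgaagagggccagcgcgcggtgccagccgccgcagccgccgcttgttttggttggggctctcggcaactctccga
Mtor, chr4:148448332-148448581, plus strand: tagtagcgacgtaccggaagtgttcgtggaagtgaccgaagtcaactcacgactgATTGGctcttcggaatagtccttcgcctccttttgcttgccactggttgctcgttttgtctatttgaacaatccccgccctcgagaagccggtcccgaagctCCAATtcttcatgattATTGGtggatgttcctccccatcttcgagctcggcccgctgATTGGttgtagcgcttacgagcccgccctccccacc
Rps6kb1, chr11:86544808-86545057, minus strand: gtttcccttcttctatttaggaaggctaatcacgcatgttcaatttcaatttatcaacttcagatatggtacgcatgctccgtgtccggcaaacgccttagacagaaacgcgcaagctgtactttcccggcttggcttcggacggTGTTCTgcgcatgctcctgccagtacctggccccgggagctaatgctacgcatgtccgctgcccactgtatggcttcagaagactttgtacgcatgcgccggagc
The study's consensus for the glucocorticoid receptor, ACANNNTGT, which is its own reverse complement and can overlap AGAACA by 3 bases, was in 0 of 14 windows of 9 members and in 5.84% of all 32851 windows. AGAACA was in 1 member window, that of Rps6kb1, as TGTTCT starting 105 bases before the start, and in 16.1% of all windows. CACGTG was in the windows of Irs1 (115 bases before the start) and Irs2 (44 bases), and in 6.02% of all windows. CCAAT was in 4 of the 14 windows and in 33.8% of all windows, with 4 matches in Mtor, starting 195, 93, 77 and 36 bases before the start. The 3 motifs besides ACANNNTGT were chosen after the values were seen. These matches describe the letters in the windows only. For genes without a known site the study searched a far wider stretch around the start for its consensus. Sites beyond these 250 bases were not looked for here. In weekly males the study reported increased receptor binding at sites near IGF1/PI3K pathway genes. It measured this binding in vehicle and weekly muscle, not after daily prednisone. It also reported higher expression of genes of this pathway and more total S6K and 4EBP1 protein in weekly males.

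IRS1 is the docking protein through which the insulin and IGF1 receptors reach PI3K in muscle. Irs1 read 24.1, 17 and 14.5 CPM in the male vehicle libraries and 25.2, 23.2 and 31.0 CPM in the male daily libraries. In females it read 14, 13.9 and 11 CPM after vehicle and 19.3, 18.9 and 20.2 CPM after daily prednisone. The female groups did not overlap, whereas male vehicle replicate 1 lay above 1 daily male. Over both sexes Irs1 was higher by 0.55 ± 0.15 on the log2 scale (SE, adjusted p = 0.019, edgeR). The gene lies on chromosome 1 between 82233101 and 82291416 in mm10, and 30.9% of its exonic bases also lie in exons of Gm9747 on the opposite strand. The strand setting of the counting is not given in the sources used here, so it is not known how reads in that stretch were assigned.

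mTOR is the kinase at the core of both mTOR complexes. Mtor, on chromosome 4 between 148448611 and 148557683, read 32.7, 33.9 and 34.5 CPM in vehicle males and 36.2, 39.4 and 42.9 CPM in daily males. In females the values were 34.0, 32.7 and 31.2 CPM after vehicle and 42.9, 38 and 41.6 CPM after daily prednisone. All daily libraries lay above all vehicle libraries of the same sex. The rise was small, 0.28 ± 0.07 on the log2 scale over both sexes, and exceeded the spread between replicates (adjusted p = 0.0143, edgeR). Mtor was also the only member called between daily and weekly prednisone, with a log2 difference of 0.28 ± 0.07 (adjusted p = 0.0216). Weekly mice were collected 2 days after their last prednisone, whereas daily mice received it every day. Regimen and time since the last dose therefore cannot be told apart in any contrast of daily with weekly prednisone. In that comparison 4.3% of all tested genes were called higher and 8.17% in either direction, and 7 of the 10 genes had a log2 difference above 0, beside 47.6% of all tested genes. The call of Mtor was lost with length and GC trends removed (0.17, adjusted p = 0.48), without a filter on low counts (adjusted p = 0.0555) and without female daily replicate 3 (adjusted p = 0.0503), and without female weekly replicate 3 Pik3r1 was called as well (0.48, adjusted p = 0.0466).

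Rps6kb1 encodes S6K1, the kinase through which mTOR complex 1 drives ribosomal protein S6. It read 21.3, 21.4 and 15 CPM in vehicle males and 25.9, 23.8 and 31.3 CPM in daily males. In females it read 19.5, 13.3 and 17 CPM after vehicle and 22.2, 24.0 and 23.3 CPM after daily prednisone. The groups did not overlap in either sex, and the log2 fold change over both sexes was 0.48 ± 0.12 (adjusted p = 0.0109, edgeR). The gene spans 86498871 to 86544805 on chromosome 11, and 1.79% of its exonic bases are shared with Rnft1 on the opposite strand.

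The other 7 genes were not called over both sexes after daily prednisone. Pik3r1, the regulatory subunit that holds p110 to IRS proteins, had a log2 fold change of 0.36 ± 0.16 (unadjusted p = 0.0346, adjusted p = 0.135). Pik3c2a, a class II PI3K, stood at 0.49 ± 0.26 (adjusted p = 0.226) and Irs2 at 0.55 ± 0.39 (adjusted p = 0.387). Pik3ca, the p110 alpha catalytic subunit, stood at 0.10 ± 0.12, with a 95% interval from -0.15 to 0.36. Akt1 (-0.01 ± 0.08, interval from -0.19 to 0.16) and Akt2 (-0.17 ± 0.13, interval from -0.44 to 0.10) had intervals that included 0, and so did Eif4ebp1 (-0.10 ± 0.21, interval from -0.54 to 0.34). The 2 targets of mTOR complex 1 thus gave different log2 fold changes, a rise in Rps6kb1 and -0.10 in Eif4ebp1, although the difference between the genes was not tested.

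Within one sex, edgeR called 0 members after daily prednisone. In males, 3 members had an unadjusted p under 0.05, DESeq2 called 0, and 6.46% of all tested genes were called by edgeR. In females, 4 members had an unadjusted p under 0.05, DESeq2 called 0, and 0.382% of all tested genes were called. The smallest adjusted p was 0.0835 in males, for Rps6kb1 (0.49 ± 0.16), and 0.114 in females, for Mtor (0.32 ± 0.10). In males, all daily libraries lay above all vehicle libraries for Irs2, Pik3c2a, Mtor and Rps6kb1, as was the case for 16.4% of all tested genes. In females this held for Irs1, Pik3r1, Mtor and Rps6kb1, and for 12.9% of all tested genes.

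**Figure D2:**
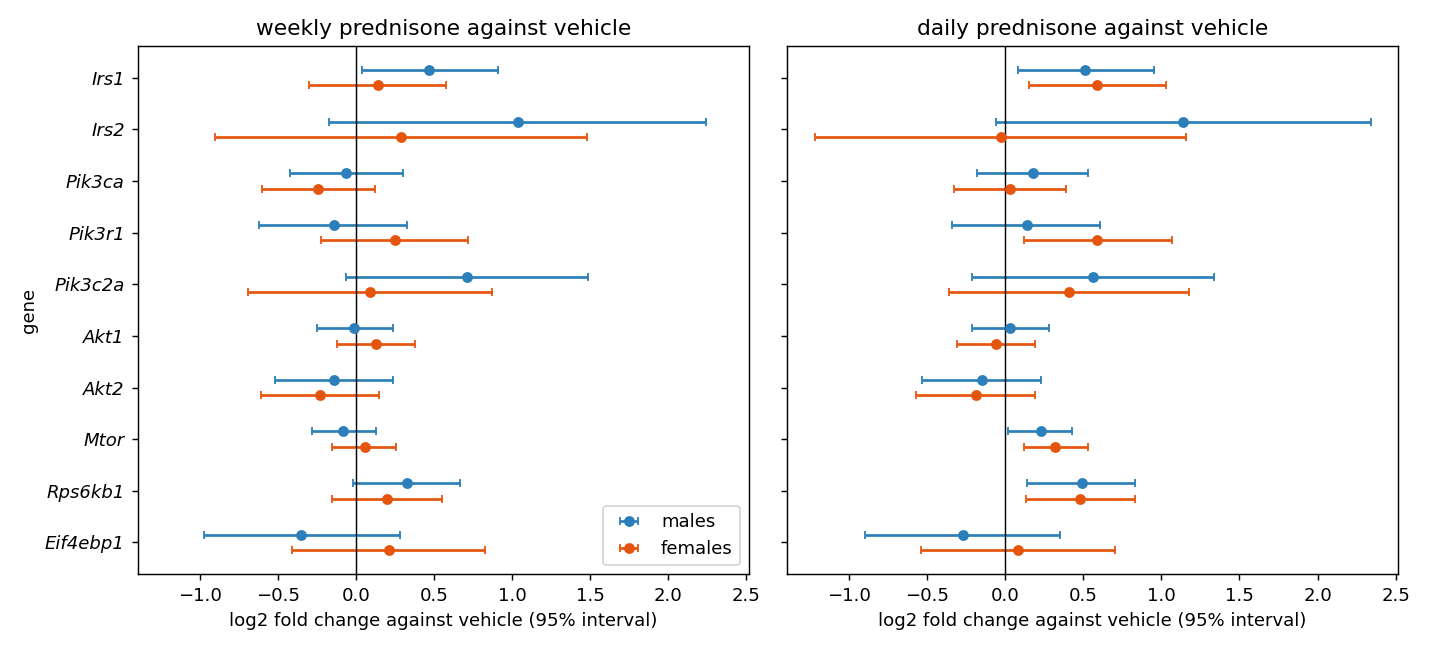
Log2 fold changes against vehicle (x axis) of the 10 genes (y axis), in males and females, after weekly prednisone on the left and daily prednisone on the right, with bars for the 95% intervals. After daily prednisone the intervals of Irs1, Mtor and Rps6kb1 lie above 0 in both sexes before adjustment, and after weekly prednisone 1 interval, that of Irs1 in males, does.

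Irs2 and Pik3r1 had the values furthest apart between the sexes. IRS2 is the second docking protein of the insulin receptor. Irs2 read 26.4, 24.2 and 28.6 CPM in vehicle males and 74.8, 55.8 and 43.8 CPM in daily males, a log2 fold change of 1.14 ± 0.56 (adjusted p = 0.246). In females it read 34.2, 25.8 and 45.0 CPM after vehicle and 13.1, 42.8 and 46.6 CPM after daily prednisone, a log2 fold change of -0.03 ± 0.55. The male groups were apart and the female groups overlapped, with female daily replicate 1 lowest.

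Pik3r1 showed the reverse order. In males it read 26.2, 28.6 and 30.9 CPM after vehicle and 31.6, 29.7 and 32.9 CPM after daily prednisone. In females it read 34.6, 35.9 and 35.2 CPM after vehicle and 69.0, 46.2 and 44.5 CPM after daily prednisone, a log2 fold change of 0.59 ± 0.22 (adjusted p = 0.179). The female minus male difference of the daily response was -1.17 ± 0.79 for Irs2 and 0.46 ± 0.32 for Pik3r1, with an adjusted p of 0.889 for both. By edgeR 0 members and 0% of all tested genes were called for this difference, 0 members had an unadjusted p under 0.05, and DESeq2 called 0 members. Mitochondrially encoded genes took 11.7% to 18.3% of the counts in daily females and 21.1% to 26.3% in vehicle females, and the part of this in the female values was not tested.

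The second comparison asked whether the weekly regimen moved these genes in either sex. In males, edgeR called 0 members and 0% of all tested genes, 1 member had an unadjusted p under 0.05, and DESeq2 called 0 members. That member was Irs1, which read 31.8, 24.8 and 20.7 CPM after weekly prednisone against 24.1, 17 and 14.5 CPM after vehicle (0.47 ± 0.21, unadjusted p = 0.0349, adjusted p = 0.849, edgeR). Irs2 read 83.5, 52.6 and 26.7 CPM after weekly prednisone, so 1 weekly library lay inside the vehicle range of 24.2 to 28.6 CPM, and its log2 fold change was 1.04 ± 0.56 (adjusted p = 0.849). Weekly male replicate 1 was the highest of the 3 for Irs1, Irs2 and Pik3c2a.

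Pik3c2a read 15.9, 11.6 and 11.2 CPM in weekly males against 6.06, 9.32 and 8.23 CPM in vehicle males (0.71 ± 0.37, adjusted p = 0.849), and the groups did not overlap. Rps6kb1 also lay apart, at 23.7, 23.6 and 25.1 CPM against at most 21.4 CPM (0.33 ± 0.16, adjusted p = 0.849). Such separation above vehicle was found for 7.76% of all tested genes in weekly males. Eif4ebp1 lay below vehicle in all 3 weekly males, at 28.9, 32.0 and 25.3 CPM against 38.2, 33.5 and 38 CPM (-0.35 ± 0.30, adjusted p = 0.866). The share of all tested genes that lay below vehicle was not counted, so this separation stands without a background. Mtor (-0.08 ± 0.10), Akt1 (-0.01 ± 0.12), Akt2 (-0.14 ± 0.18), Pik3ca (-0.06 ± 0.17) and Pik3r1 (-0.14 ± 0.23) overlapped with vehicle in males.

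In weekly females, edgeR called 0 members and 0% of all tested genes, 0 members had an unadjusted p under 0.05, and DESeq2 called 0 members, though it called 152 genes in all. No member separated from vehicle, beside 4.94% of all tested genes that lay above it. Irs2 read 12.8, 43.0 and 72.9 CPM and Pik3c2a 4.22, 12 and 9.33 CPM in these libraries, with weekly female replicate 1 lowest for both. Eif4ebp1 read 47.5, 24.7 and 64.6 CPM and Pik3r1 27.8, 39.2 and 58.9 CPM, so the 3 weekly females spread more widely than the vehicle females for each of these 4 genes. The adipocyte marker score, the mean log2 CPM of the 10 markers, was 6.64, 4.08 and 7.61 in these libraries and between 3.41 and 3.6 in vehicle females, and its part in the spread was not tested.

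The largest female minus male differences of the weekly response were -0.74 ± 0.79 for Irs2, -0.63 ± 0.52 for Pik3c2a and 0.56 ± 0.42 for Eif4ebp1, on the log2 scale. By edgeR 0 members and 0% of all tested genes were called, the adjusted p was 1 for every member, 0 members had an unadjusted p under 0.05, and DESeq2 called 0 members. The 95% intervals of these differences, from -2.43 to 0.94 for Irs2, from -1.73 to 0.48 for Pik3c2a and from -0.32 to 1.44 for Eif4ebp1, left room for large differences in either direction. For Mtor the interval was narrower, from -0.16 to 0.43. Over both sexes, edgeR called 0 members and 0% of all tested genes after weekly prednisone, DESeq2 called 0 members, and 1 member had an unadjusted p under 0.05, Rps6kb1 (0.26 ± 0.12, adjusted p = 0.422).

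The daily rises were also set beside transcript length and the adipocyte score, and the part of either was not tested. Of the 10 genes, 8 lay in the longest of 3 equal classes of transcript length (over 3900 bases), the exceptions being Akt1 (2690 bases) and Eif4ebp1 (1997 bases). The median log2 fold change after daily prednisone, over both sexes, was 0.18 in that class of 4509 genes, 0.03 in the middle class and -0.20 in the shortest, and the members' median was 0.32. Once splines had taken out how each library's values ran with the length and GC content of the transcripts, 0 members were called. Irs1 then stood at 0.32 ± 0.17 (adjusted p = 0.312), Rps6kb1 at 0.16 ± 0.11 (adjusted p = 0.458) and Mtor at 0.10 ± 0.10 (adjusted p = 0.647). With the adipocyte score as a covariate, 0 members and 0 of all genes were called, while Mtor stood at 0.30 ± 0.11 (adjusted p = 0.201), Irs1 at 0.42 ± 0.23 (adjusted p = 0.391) and Rps6kb1 at 0.35 ± 0.18 (adjusted p = 0.349). The score was 4.47 to 5.75 in daily males against 2.46 to 3.41 in vehicle males, and 5.27 to 7.24 in daily females against 3.41 to 3.6 in vehicle females.

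**Figure D3:**
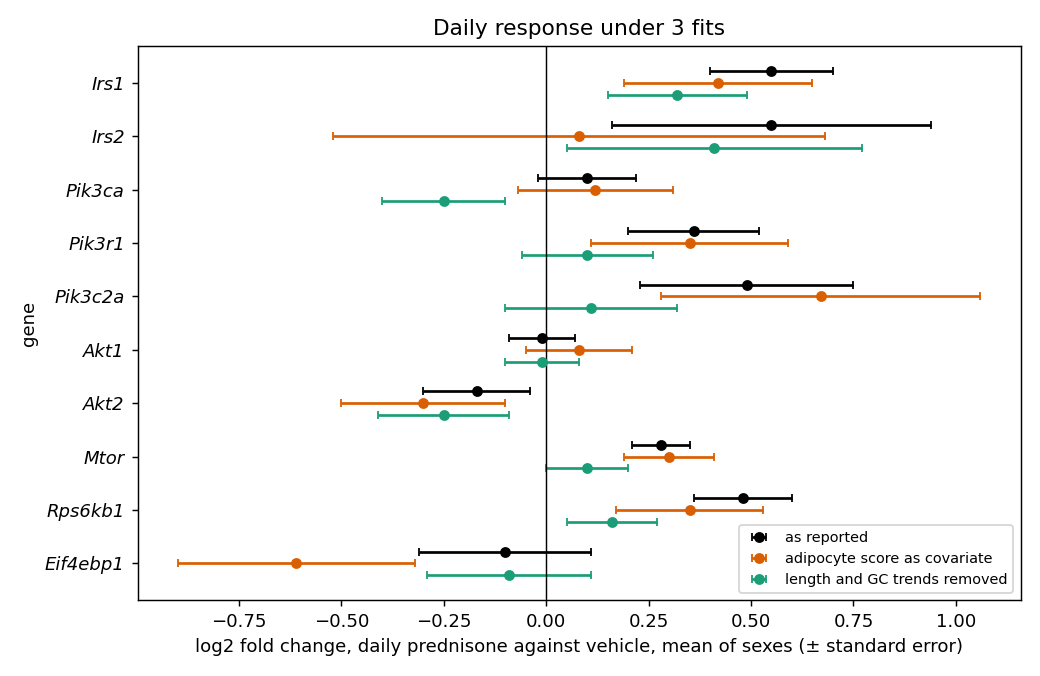
Log2 fold change after daily prednisone over both sexes (x axis) for the 10 genes (y axis) in 3 fits, with bars for the standard error. Removing the length and GC trends brings Mtor from 0.28 to 0.10 and Rps6kb1 from 0.48 to 0.16, whereas the adipocyte covariate leaves Mtor at 0.30 with a wider bar.

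Around these members, 77 of 78 genes of a wider pathway list could be tested, Pik3cg being the exception. After daily prednisone over both sexes, 4 rose and 6 fell (edgeR), and the median log2 fold change was 0.10, beside 0.02 over all tested genes. These 10 calls among 77 genes stood against 15% of all tested genes called in either direction and 7.48% called higher, so the count is no result about the list, and single genes are described. Among the ligands, Igf1, the growth factor that muscle makes, read 16.2, 13.2 and 12.5 CPM in vehicle males and 21.2, 21.4 and 17.8 CPM in weekly males, and in females 11, 6.52 and 12.9 CPM after vehicle and 14.3, 11.4 and 19.0 CPM after weekly prednisone. The weekly males lay above vehicle, as did 7.76% of all tested genes in weekly males, and the females overlapped. The log2 fold changes of Igf1 were nonetheless alike. They were 0.53 ± 0.29 in weekly males (adjusted p = 0.849) and 0.55 ± 0.30 in weekly females (adjusted p = 0.695, edgeR). Over both sexes Igf1 had a log2 fold change of 0.54 ± 0.21 after weekly (adjusted p = 0.351) and 0.00 ± 0.22 after daily prednisone (adjusted p = 0.999). Insr, the insulin receptor, stood at 0.35 ± 0.13 after daily prednisone (adjusted p = 0.0707) and Igf1r, the IGF1 receptor, at 0.36 ± 0.24 (adjusted p = 0.356).

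Downstream, Pdpk1, whose product phosphorylates AKT, rose by 0.30 ± 0.09 on the log2 scale (adjusted p = 0.0423), and Tbc1d4, the AKT substrate that gates glucose transporter traffic, by 0.47 ± 0.12 (adjusted p = 0.0176). Rptor, which recruits substrates to mTOR complex 1, rose by 0.32 ± 0.09 (adjusted p = 0.0324), whereas Rictor of mTOR complex 2 stood at 0.21 ± 0.12 (adjusted p = 0.29). The clearest rise was in Eif4ebp2, a relative of Eif4ebp1. Eif4ebp2 read 33.4, 34.5 and 29.5 CPM in vehicle males and 47.4, 48.4 and 61.8 CPM in daily males, then 27.0, 27.5 and 27.9 CPM in vehicle females and 51.5, 39.9 and 41.3 CPM in daily females. The groups were apart in both sexes, and the log2 fold change was 0.69 ± 0.10 (adjusted p = 0.000961, edgeR).

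Among the genes that fell were 4 of the 5 subunits of Ragulator, the lysosomal platform on which amino acids activate mTOR complex 1. Over all tested genes, 1016 of 13596 were called lower. The 4 subunits have short transcripts, from 668 to 1119 bases, and the part of length in their fall was not tested. Their count is a description only. Lamtor3, the remaining subunit (1295 bases), stood at -0.17 and was not called. Lamtor4 read 46.4, 39.3 and 45.0 CPM in vehicle males and 21, 18.9 and 19.7 CPM in daily males. In females it read 33.9, 49.0 and 32.0 CPM after vehicle and 29.7, 17.7 and 23.6 CPM after daily prednisone. The groups did not overlap in either sex, and over both sexes Lamtor4 fell by 0.91 ± 0.14 on the log2 scale (adjusted p = 0.000998, edgeR). Lamtor2 fell by 0.65 ± 0.13 and Lamtor5 by 0.53 ± 0.11 (adjusted p = 0.00362 for both), and Lamtor1 by 0.40 ± 0.13 (adjusted p = 0.0387). Rps6, the ribosomal protein that S6K1 phosphorylates, fell by 0.47 ± 0.09 (adjusted p = 0.003), and Ddit4l, a relative of the stress-induced mTOR inhibitor Ddit4, by 0.84 ± 0.24 (adjusted p = 0.0243). Ddit4 itself stood at 0.28 ± 0.55 (adjusted p = 0.782).

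**Figure D4:**
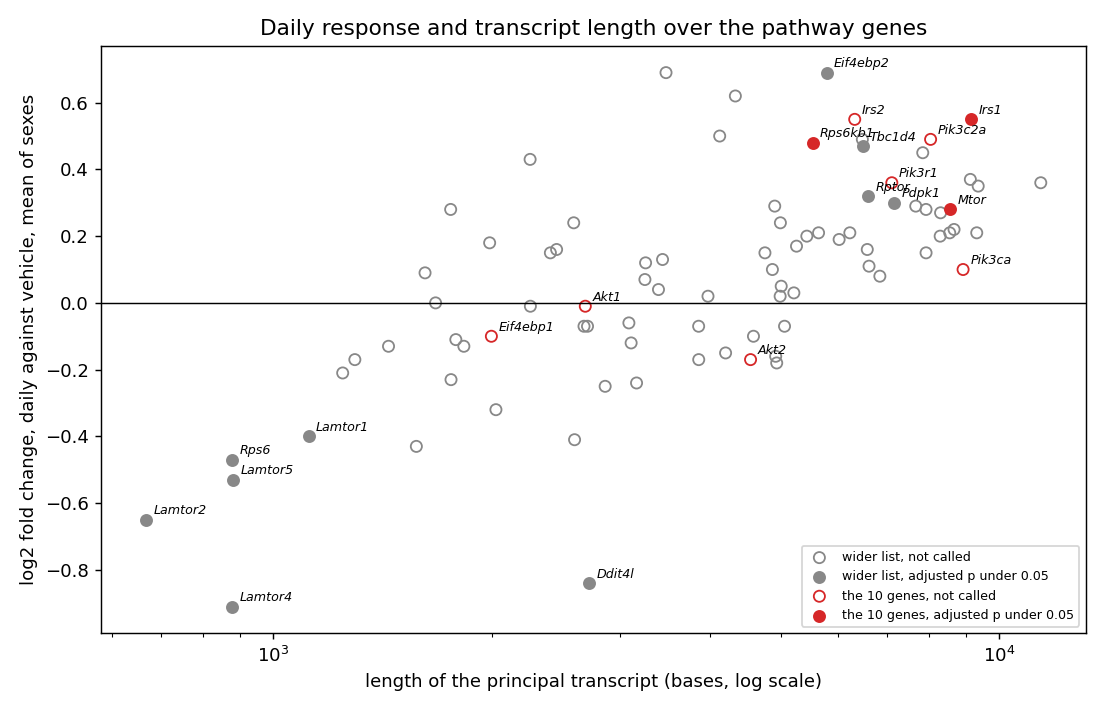
Log2 fold change after daily prednisone over both sexes (y axis) against the length of the principal transcript (x axis, log scale) for the 10 genes and the 77 tested genes of the wider list, with filled points for an adjusted p under 0.05. The 4 genes of the wider list that rose have transcripts of 5784 to 7161 bases, and 5 of the 6 that fell have transcripts of 668 to 1119 bases.

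These calls were split by transcript length. Of the wider list, 40 genes lay in the longest class, where 4 rose and none fell, and 17 in the shortest, where none rose and 5 fell. With length and GC trends removed, Eif4ebp2 (0.56, adjusted p = 0.0231), Lamtor4 (-0.62, adjusted p = 0.0119) and Ddit4l (-0.94, adjusted p = 0.0443) were still called, while the other 7 were not. With the adipocyte covariate none of the 10 was called. In males alone, Eif4ebp2 rose by 0.69 ± 0.15 (adjusted p = 0.0141) and Lamtor4, Lamtor2 and Lamtor5 fell, by 1.13 ± 0.20, 0.75 ± 0.18 and 0.60 ± 0.15. These 4 calls stood against 6.46% of all tested genes called in males, and all 4 were lost with the trends removed (adjusted p from 0.06 for Lamtor4 to 0.29 for Lamtor2) and with the adipocyte covariate (adjusted p from 0.0581 for Lamtor4 to 0.0994 for Lamtor5). In females alone, edgeR called 0 genes of the list, 12 had an unadjusted p under 0.05, and DESeq2 called 4.

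Between daily and weekly prednisone over both sexes, 6 genes of the wider list were higher after daily prednisone and 3 lower, beside 4.3% of all tested genes called higher and 8.17% called in either direction. Eif4ebp2 (0.67 ± 0.10, adjusted p = 0.00573), Tbc1d4 (0.64 ± 0.12, adjusted p = 0.00808), Deptor, an mTOR inhibitor (0.40 ± 0.09, adjusted p = 0.0185), and Tsc1, a subunit of the TSC complex (0.45 ± 0.11, adjusted p = 0.0239), were the higher genes with the smallest adjusted p. Lamtor4 (-0.74 ± 0.14, adjusted p = 0.00789), Lamtor5 (-0.41 ± 0.11, adjusted p = 0.0282) and Trib3, an inhibitor of AKT (-0.87 ± 0.24, adjusted p = 0.0356), were lower. Trib3 was scarce, with means of 2.51 CPM in weekly and 0.986 CPM in daily females. In males the means were 1.44 and 1.07 CPM, and the male groups overlapped. With length and GC trends removed, Eif4ebp2 alone of these 9 genes was called (0.58, adjusted p = 0.0479), while Lamtor4 and Tbc1d4 had an adjusted p of 0.119. After weekly prednisone against vehicle, edgeR called 0 genes of the wider list in males, in females and over both sexes, with 4, 5 and 8 genes at an unadjusted p under 0.05, and DESeq2 called 0 in each.

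Across the 18 libraries, which share sex and treatment groups, some members varied together in log2 CPM. The pair most alike was Irs1 and Rps6kb1 (Pearson r = 0.82, and 0.51 for deviations from the group means). Irs2 and Pik3c2a followed (0.76, and 0.77 within groups), as did Akt2 and Eif4ebp1 (0.75, and 0.80 within groups). Pik3c2a and Akt2 ran opposite to each other (-0.76 both overall and within groups). Among all tested genes, the pattern most like Irs2 was that of Plaur (r = 0.96), most like Rps6kb1 that of Senp6 (0.93), and most like Irs1 that of Papola (0.91). For Mtor it was Kidins220 (0.88), for Pik3c2a Skil (0.92), for Pik3ca Amot (0.92), for Akt2 Bex1 (0.90), for Pik3r1 Wdr81 (0.86), for Eif4ebp1 Bcat2 (0.85) and for Akt1 St14 (0.79). These likenesses are descriptions over 18 libraries.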

How the data were processed

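Whole-number read counts per gene were deposited by the authors, who aligned the reads to mm10 and counted them per gene (the submitters' processing notes name TopHat2 2.1.0, Bowtie2 2.2.6 and HTSeq). The strand setting and annotation release are not given in the sources used here. The deposited counts carry no normalization. Of 43430 gene identifiers, 42462 had a symbol, and lengths came from GENCODE mouse release 21, where 7 of the 10 genes had the same span. Groups were read from the labels.

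Genes with enough counts in a group of 3 libraries (filterByExpr, minimum count 10) were tested with edgeR 4.0.16 (R 4.3.3) on the counts as deposited. The fit used TMM factors, the robust quasi-likelihood test and 6 group means over all 18 libraries. Responses were contrasted within each sex, as the mean of the sexes and as a female minus male difference, with Benjamini-Hochberg adjustment and a threshold of 0.05. Intervals are 95% intervals of the fit. The test was checked on simulated counts. The study itself filtered on expression, variability and fold change. Replicates were separate mice, and the p-values weigh a difference between groups against the spread between mice, as estimated by the fit over all 6 groups.

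Alternatives were DESeq2 1.42.0, its size factors, no filter, the adipocyte score as a covariate, the replicate number as a block, length and GC trends removed by splines of 5 degrees of freedom, and leaving out each library. The 10 genes, the wider list and the marker lists were chosen with earlier results of these data known. The named genes were all 10 members, the called genes of the wider list (at most the 4 with the smallest adjusted p in each direction, and here also the remaining ones called, chosen after their values were seen), and 7 fixed genes of the pathway, of which 1 is not reported here. Promoter windows came from RefSeq (GRCm38.p6) and covered 9 of the 10 genes.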

Additional observations from a re-analysis of the deposited data

How the results depend on the processing

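The calls of Irs1, Mtor and Rps6kb1 after daily prednisone over both sexes were kept with DESeq2, with its size factors in edgeR, without a filter on low counts, with the replicate block and in 12 of 12 fits that left out 1 library. They were lost, leaving 0 members called, with the adipocyte score as a covariate (Irs1 0.42, Mtor 0.30, Rps6kb1 0.35) and with length and GC trends removed (Irs1 0.32, Mtor 0.10, Rps6kb1 0.16), and the cause was not tested. The call of Mtor between daily and weekly prednisone was lost with length and GC trends removed (0.17), without a filter on low counts (0.31, adjusted p = 0.0555, edgeR) and without female daily replicate 3 (0.28, adjusted p = 0.0503). Without female weekly replicate 3, Pik3r1 was called as well (0.48, adjusted p = 0.0466), so leaving out 1 library gave between 0 and 2 members, with Mtor between 0.27 and 0.32 and Pik3r1 between 0.20 and 0.48. With 3 libraries per group, the median SE of a log2 fold change was 0.229 in daily males and 0.162 over both sexes, which limits how small a difference could be called.

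Counts over all genes moved more. In daily males 878 genes were called as reported, 1383 by DESeq2, 28 with the adipocyte covariate, 30 with length and GC trends removed, and between 92 and 414 with 1 library left out (male vehicle replicates 1 and 2, in that order). In daily females the count of 52 became 530 by DESeq2, 0 with the covariate, 2 with the trends removed, 29 without a filter, and between 0 (without female vehicle replicate 2) and 126 (without female daily replicate 1). Over both sexes the 2033 genes became 0 with the covariate, 556 with the trends removed and between 1340 and 2475 with 1 library left out. Between daily and weekly prednisone the 1111 genes became 100 with the trends removed and between 568 and 1122. After weekly prednisone, DESeq2 called 1 gene in males, 152 in females and 183 over both sexes, where edgeR called 0, and without female weekly replicate 2 edgeR called 253 in females and 174 over both sexes. For the sex difference of the daily response DESeq2 called 2 genes, and leaving out 1 library gave at most 1. Of the wider list, the 10 genes called after daily prednisone became 0 with the covariate, 3 with the trends removed and between 6 (without female daily replicate 3) and 13. The 4 called in males became 7 by DESeq2, 0 under the covariate and 0 with the trends removed, and between 1 (without male vehicle replicate 1) and 3. DESeq2 called 4 in females, where edgeR called 0. For daily against weekly prednisone the 9 called became 14 by DESeq2 and 1 with the trends removed.

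Same-numbered libraries deviated together in 1 of 15 pairs of groups (every correlation over 0.1 between weekly and daily females), with correlations from -0.5 to 0.5, so the numbers were not taken to pair the mice. The replicate block brought the genes called in daily females to 8 and the sex difference of the daily response of Rps6kb1 to 0.01, and it changed no call of a member.

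The sign changed for 89 member values, none of them called, with sizes of at most 0.29 as reported. With length and GC trends removed these were, for daily prednisone against vehicle, Pik3ca (-0.26 in males, -0.24 in females, -0.25 over both sexes), Pik3r1 (-0.20) and Mtor (-0.03) in males. For daily against weekly prednisone they were Pik3c2a (-0.16), Akt1 (0.01), Akt2 (-0.01) and Eif4ebp1 (0.04), for weekly prednisone over both sexes Akt1 (-0.02) and Pik3r1 (-0.04), and for the sex difference of the daily response Rps6kb1 (0.16), Akt2 (0.07), Pik3ca (0.02) and Pik3c2a (0.00). With the adipocyte covariate they were Akt1 (0.05 in daily females, 0.08 over both sexes after daily prednisone, 0.07 in weekly males), Eif4ebp1 (-0.48 in daily and -0.47 in weekly females, 0.02 for daily against weekly prednisone), Irs1 (-0.02) and Irs2 (-0.22) in weekly females, and Mtor (0.02) over both sexes after weekly prednisone. Without a filter they were Akt1 (0.02 over both sexes after daily prednisone) and Irs2 (0.00 in daily females), and with DESeq2 or its size factors Rps6kb1 (0.00 for the sex difference of the daily response).

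With 1 library left out, the daily response ranged in males from -0.10 to 0.19 for Akt1, and in females from -0.32 to 0.35 for Irs2, from -0.19 to 0.32 for Eif4ebp1 and from -0.11 to 0.13 for Pik3ca. Over both sexes it ranged from -0.08 to 0.06 for Akt1 and from -0.23 to 0.03 for Eif4ebp1. The weekly response ranged in males from -0.05 to 0.03 for Akt1, from -0.13 to 0.02 for Pik3ca and from -0.25 to 0.01 for Pik3r1. In females it ranged from -0.34 to 0.73 for Irs2, from -0.12 to 0.48 for Eif4ebp1, from -0.27 to 0.42 for Pik3c2a and from -0.08 to 0.48 for Pik3r1. Over both sexes it ranged from -0.24 to 0.07 for Eif4ebp1, from -0.03 to 0.00 for Mtor and from -0.11 to 0.17 for Pik3r1. Daily against weekly prednisone ranged from -0.14 to 0.01 for Akt1, from -0.07 to 0.07 for Akt2, from -0.16 to 0.14 for Eif4ebp1, from -0.33 to 0.21 for Irs2 and from -0.08 to 0.27 for Pik3c2a. The sex difference of the daily response ranged from -0.24 to 0.04 for Akt1, from -0.21 to 0.12 for Akt2, from -0.17 to 0.21 for Irs1, from -0.43 to 0.12 for Pik3c2a and from -0.16 to 0.13 for Rps6kb1, and that of the weekly response from -0.24 to 0.07 for Akt2 and from -0.29 to 0.00 for Rps6kb1.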
